A study of Mus musculus with 3 samples.

Results

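The genes described here carry the names of the machinery that moves proteins out of the endoplasmic reticulum (ER), through the Golgi and into endosomes and lysosomes. The rule that picked them reads names and no measured value, though it was set with earlier results of these data known. It takes the Sec genes with a number, the COPI subunits named Cop, and the Tmed, Trappc, Snx, Vps, Stx, Vamp and Chmp families. Also taken are the beta, gamma, delta, mu and sigma genes of adaptor complexes AP-1 to AP-4, the V-ATPase, the Ssr genes and the golgins. Alpha subunits of adaptor complexes fall outside the rule. The platform annotation pairs 192 probes with 109 such symbols. A gene was kept when at least 1 of its probes had a nonzero value on all 3 arrays, which left 87 genes on 134 probes, of 6077 genes measured in all. Of the other 22 symbols, 3 had a value on 2 arrays, 4 on 1 array and 15 on none.

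All 3 two-colour arrays of the series set spleen against a common reference, as a single group. Each array carried purchased mouse spleen total RNA in Cy5 and the Universal Mouse Reference RNA (UMRR, a purchased pool of mouse cell line RNA) in Cy3, both after a single round of amplification. Neither strain nor age, sex or number of animals is given in the labels. Both RNAs bear the same product numbers throughout, so p-values reflect how far 3 hybridisations differ, possibly for technical reasons alone, and not other animals. The deposited value is a signed log ratio without a stated base or numerator. Positive ratios are read as likely higher in spleen. The basis is the dye labels, if red is divided by green as is usual, together with marker genes: all 4 measured B cell markers were positive (median 3.37), as were the 3 macrophage markers (median 3.58) and the 4 red cell markers (median 2.56), whereas all 4 fibroblast and matrix markers were negative (median -2.29). Of 5 T cell markers 4 were positive and Cd3d was negative at -0.85. Sample titles name the reference first, which could mean the opposite order, and with no labelled dye swap the effect of the dye cannot be told apart from that of the RNA. Because a whole organ was measured against a pool of lines, fewer cells of a type and less RNA per cell cannot be told apart either.

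Secreted and membrane proteins enter the ER through the Sec61 channel, leave it in vesicles coated by COPII, and are returned from the Golgi by COPI. Tethers such as TRAPP and the golgins catch arriving vesicles, and SNARE proteins (syntaxins and VAMPs among them) pull the membranes together. Adaptor complexes, sorting nexins, retromer and the ESCRT machinery sort cargo in the trans-Golgi and endosomes, while the V-ATPase pumps protons to acidify endosomes and lysosomes. In spleen these steps serve antibody secretion by plasma cells and the uptake and degradation of old red cells and antigen by macrophages.

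The median ratio of these genes was close to that of all genes, while single members, subunits of the same complex among them, were called in opposite directions. How often subunits of other complexes were called in opposite directions was not counted. With limma (a moderated test of each gene's mean ratio against 0, adjusted p under 0.05 over all 6077 genes), 58 of the 87 members passed, 30 positive and 28 negative, and 29 did not. The background over all genes was 70.3% called, 33.2% positive and 37.1% negative, beside 66.7%, 34.5% and 32.2% of the members, so the share called is close to the background. That background also stands beside the counts of each group below. The median of the members was 0.002, against -0.033 over all genes, and the quartiles of the members were -0.334 and 0.372. A mean of 1 or more in size was reached by 10 members, 7 of them positive, a share of 11.5% beside 14.2% of all genes. No member lay outside -1.17 to 1.86, while all genes reached from -4.93 to 5.70. All 58 called members had the same sign on the 3 arrays, as had 4251 of the 4270 called genes over all, so this mostly follows from the call. The smallest called mean was 0.169, and with 1.5-fold as the null limma kept 9 positive and 5 negative members if the base is 2 (the background was 19.9% of all genes in either direction) and 15 and 12 if the logs are natural (background 29.1%).

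**Figure D1:**
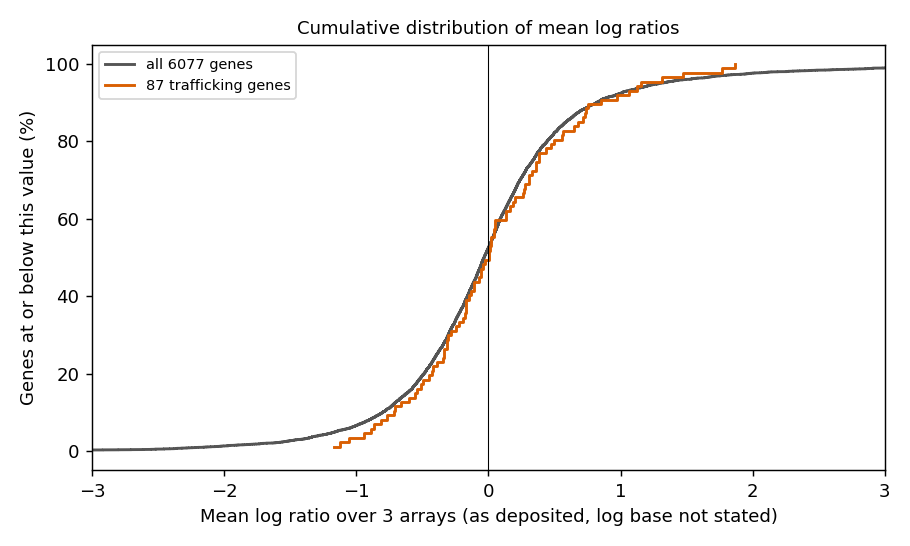
The cumulative share of genes (vertical axis, percent) at or below each mean log ratio over 3 arrays (horizontal axis, log base not stated, drawn from -3 to 3) for all 6077 genes and for the 87 trafficking genes. The 2 curves run close together, with the trafficking genes ending at -1.17 and 1.86.

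Promoter sequence was available for 65 of the 87 members, from RefSeq on build GRCm38.p6, and was searched on both strands over the 250 bases before the start for letters at the heart of a pair of elements known for this machinery. CACGTG, which reads the same on both strands, is the core of the element through which TFEB acts on lysosomal genes. GACGTGG is part of the element bound by XBP1 and ATF6 in the unfolded protein response, the program that expands the ER. They share no site, since the letters on either side of ACGT differ. CACGTG was found in 9 of the 65 members (13.8%, beside 6.86% of the 27025 genes of every kind with a promoter in the table), and GACGTGG in 5 (7.69%, beside 2.23%). A match is a description and not a shown binding site. Of the 9 genes with CACGTG (Atp6v0b, Golga5, Sec62, Snx5, Ssr1, Stx6, Trappc5, Vamp4 and Vps16) 4 were called positive, 2 negative and 3 not. Of the 5 with GACGTGG (Copb1, Sec24c, Sec24d, Ssr1 and Trappc2) 2 were called positive and 2 negative, but 1 of the positive calls is Copb1, whose probes were called in opposite directions. Without it Sec24c was positive and Sec24d and Ssr1 negative. The sequences below show, in capitals, the match in 2 positive endolysosomal genes, in Ssr1, which holds both, and in the COPII paralogs Sec24c and Sec24d, whose ratios were among the largest in opposite directions.
Atp6v0b, chr4:117887330-117887579, minus strand: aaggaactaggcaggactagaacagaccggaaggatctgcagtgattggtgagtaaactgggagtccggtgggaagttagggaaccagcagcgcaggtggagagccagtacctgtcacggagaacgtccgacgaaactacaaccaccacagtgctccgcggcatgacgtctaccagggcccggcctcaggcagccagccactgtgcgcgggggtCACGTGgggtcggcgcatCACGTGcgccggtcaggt
Vps16, chr2:130424070-130424319, plus strand: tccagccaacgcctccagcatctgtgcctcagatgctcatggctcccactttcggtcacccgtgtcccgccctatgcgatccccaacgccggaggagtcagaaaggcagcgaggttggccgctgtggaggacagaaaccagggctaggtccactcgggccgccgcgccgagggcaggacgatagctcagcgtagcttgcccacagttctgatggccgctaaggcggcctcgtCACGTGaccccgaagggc
Ssr1, chr13:37994209-37994458, minus strand: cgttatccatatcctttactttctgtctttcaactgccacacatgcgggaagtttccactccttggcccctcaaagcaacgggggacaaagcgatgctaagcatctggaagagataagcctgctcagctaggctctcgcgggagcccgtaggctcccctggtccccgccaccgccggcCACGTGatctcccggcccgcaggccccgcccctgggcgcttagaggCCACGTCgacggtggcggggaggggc
Sec24c, chr14:20674071-20674320, plus strand: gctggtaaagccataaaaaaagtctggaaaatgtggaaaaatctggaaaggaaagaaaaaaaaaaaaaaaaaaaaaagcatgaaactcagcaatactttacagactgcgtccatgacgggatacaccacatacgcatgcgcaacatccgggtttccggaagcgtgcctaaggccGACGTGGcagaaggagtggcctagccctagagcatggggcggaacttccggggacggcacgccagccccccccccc
Sec24d, chr3:123267246-123267495, plus strand: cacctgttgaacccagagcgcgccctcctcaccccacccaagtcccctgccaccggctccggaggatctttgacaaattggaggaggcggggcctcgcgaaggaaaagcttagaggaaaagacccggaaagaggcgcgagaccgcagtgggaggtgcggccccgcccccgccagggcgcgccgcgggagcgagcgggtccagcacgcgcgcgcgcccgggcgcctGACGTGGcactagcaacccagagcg
The match begins 18 bases before the start in Vps16, 76 in Sec24c and 25 in Sec24d, and in Ssr1 at 72 for CACGTG and at 26 for GACGTGG. Atp6v0b holds CACGTG at 2 places.

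At the ER entry gate, the Sec61 channel genes other than Sec61a2 lay near 0 or slightly above it, while the 3 measured subunits of the translocon-associated complex TRAP were all negative. After each mean below, ± gives the SD over the 3 arrays (n = 3). Where array 3 is left out, limma took its variance almost wholly from all genes together. Those p-values therefore hardly reflect the scatter of the gene itself. Of 11 genes of this group 9 were measured, 2 positive, 4 negative and 3 not called. Sec61a1, the ubiquitous pore subunit, had -0.051, -0.26 and 0.14 on arrays 1 to 3, a mean of -0.055 ± 0.20 that was not called, with array 3 positive and the others negative. The small subunits Sec61b and Sec61g had means of 0.20 (not called, adjusted p = 0.0751, but called without array 3 at 0.29, adjusted p = 0.0236) and 0.31. For Sec61g the arrays gave 0.22, 0.26 and 0.44, all positive, but its call ended without array 3 (0.24, adjusted p = 0.0605) and 1 of its 2 probes, the one with the smallest SD, was at 0.20. Sec62, which helps post-translational entry, had a mean of 0.002. Sec11a, a catalytic subunit of the signal peptidase that trims the leader from the entering chain, gave 0.34, 0.27 and 0.36 and passed at 0.33 ± 0.046 (adjusted p = 0.00265).

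Against these stood Sec61a2, the second pore paralog, the lowest of all 87 members. Its values were -1.21, -1.16 and -1.13, with a mean of -1.17 ± 0.040 (adjusted p = 4.05e-06), which corresponds to 2.25-fold if the base is 2 and 3.22-fold if the logs are natural. On each array it lay below Sec61a1, by 1.16, 0.91 and 1.28, a difference that was not tested. Ssr2, the beta subunit of the TRAP complex that assists translocation, gave -1.10, -0.86 and -0.71 over 5 probes (-0.89 ± 0.20, adjusted p = 7.91e-05). All 5 of its probes were called negative, between -1.02 and -0.79. Ssr4, the delta subunit, repeated closely at -0.73, -0.72 and -0.70 (-0.72 ± 0.015). Ssr1, the alpha subunit, was negative at -0.42 ± 0.075 over 4 probes, of which 3 were called. Removing a running median from each array was a check for shared trends between neighbouring probes that can also remove real ratios. The median was taken over 5 probe numbers on either side, the probe itself included (called window 5 here, and window 20 with 20 numbers). With window 5 the call of Ssr1 ended (-0.14, adjusted p = 0.0532). Of Ssr3, the gamma subunit, 1 probe had a value on 1 array, -1.03.

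The group of COPII coat and ER exit genes held a pair of paralogs with opposite ratios. Of 7 measured genes 1 was positive, 4 negative and 2 not called, with a median of -0.389. The negative genes include Sec22a and Sec22b, which are not coat subunits. Of the coat genes Sec24c was positive, Sec24d and Sec31a negative, and Sec13 and Sec23b not called. SEC24 proteins are the cargo-reading part of the coat, and Sec24c and Sec24d belong to the same subclass. Sec24c gave 1.13, 1.10 and 0.96 (1.06 ± 0.092, adjusted p = 9.65e-06), and Sec24d gave -1.01, -1.10 and -1.05 (-1.05 ± 0.047, adjusted p = 7.1e-06). The values of these paralogs did not overlap, and Sec24c lay above Sec24d by 2.14, 2.20 and 2.01 on the 3 arrays. The 2 ratios were not tested against each other, and with window 5 Sec24c was no longer called (0.20, adjusted p = 0.117). Sec22a and Sec22b, related to R-SNAREs of ER and Golgi traffic, were both negative. Sec22a gave -1.05, -0.87 and -1.46, with array 3 lower than the others (-1.13 ± 0.31, adjusted p = 9.51e-05), and had -0.75 with window 5. Sec22b was at -0.56 ± 0.15 over 2 probes that differed in size, -0.91 and -0.20. The outer cage gene Sec31a was negative at -0.39 ± 0.043. With window 5 its mean became 0 and it was not called. The window holds the probe itself, so a mean of 0 likely means that its own value was removed. How many neighbouring probes the window held was not counted, so nothing is read from the lost call. The other cage gene, Sec13 (-0.11), and the inner coat gene Sec23b (0.008) were not called.

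In the COPI coat, which returns proteins from the Golgi to the ER, 3 of 4 genes held by the name rule were measured. Of these 1 was positive, 1 negative and 1 not called. Copb1 (beta subunit) had 0.77, 0.88 and 0.61 when its 2 probes were averaged (0.75 ± 0.14), but those probes were called in opposite directions. One probe gave -0.51, -0.31 and -0.45 and the other 2.05, 2.07 and 1.67, so no direction can be given for the gene. Copg1 (gamma subunit) gave -0.42, -0.32 and -0.29 (-0.35 ± 0.065), with 1 of 2 probes called. Its mean was -0.57 for the probe with the smallest SD and -0.20 with window 5. Copz1 (zeta subunit, -0.17) was not called, but passed without array 3 at -0.26, adjusted p = 0.047.

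The p24 proteins of the TMED family ride between ER and Golgi as cargo receptors, and 2 of the 3 measured were among the highest members. Tmed6 gave 1.80, 1.89 and 1.61 over 4 probes (1.77 ± 0.14, adjusted p = 1.42e-06), 3.40-fold in base 2 and 5.84-fold in natural logs. All 4 probes were called positive, from 0.76 to 2.37. Tmed11 gave 1.61, 1.37 and 1.43 on 1 probe (1.47 ± 0.13, adjusted p = 2.84e-06). Both lay well above 0 on every array. Tmed5 was at -0.15, -0.23 and -0.19 (-0.19), and its call ended without array 1, 2 or 3 in turn (adjusted p = 0.0798, 0.0701 and 0.142). A further member, Tmed8, had values on arrays 1 and 3 of 1.21 and 0.73 and was not tested. Exocrine pancreas genes also had high positive ratios, likely on the spleen side: of 15 markers listed, 10 are on the array and 9 were measured, 8 of them positive at 3.18 to 5.22, with summed log ratios of 34.5, 33.9 and 33.0 on the 3 arrays. Cel was not called (-0.14) and Try4 was without a value on all 3 arrays. Their part in the ratios of the Tmed genes was not tested.

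The TRAPP complexes tether vesicles at the Golgi and activate Rab GTPases. All 9 genes were measured: 2 were positive, 3 negative and 4 not called. Trappc8, a subunit particular to the TRAPPIII form, repeated closely at 1.15, 1.09 and 1.13 (1.12 ± 0.030, adjusted p = 4.66e-06). Trappc13, another TRAPPIII subunit, was on the other side at -0.74, -0.50 and -0.74 (-0.66 ± 0.14; -0.30 with window 5). On the 3 arrays Trappc8 exceeded it by 1.90, 1.59 and 1.86, not tested. The core subunits did not share a sign either. Trappc5 gave 0.48, 0.41 and 0.54 (0.48 ± 0.065, and 0.28 and 0.27 with windows 5 and 20). Trappc6a gave -0.69, -0.54 and -0.56 (-0.60 ± 0.080). Trappc2, Trappc2l, Trappc3 and Trappc4, also core subunits, lay between -0.15 and 0.17 and were not called, Trappc2l narrowly (adjusted p = 0.0589). With each array centred on its median, Trappc2l passed (0.20, adjusted p = 0.0341), as it did without array 2 (0.21, adjusted p = 0.0405). Trappc9, of the TRAPPII form, was called at -0.33, but one of its probes was at -0.65 and the other at -0.02. Its call ended with window 20 (-0.11, adjusted p = 0.224) and its sign turned with window 5 (0.11, adjusted p = 0.285).

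Golgins are long coiled tethers of the Golgi. Golga3 was negative at -0.96, -0.53 and -0.81 (-0.77 ± 0.22, adjusted p = 0.000243), and shrank to -0.26 and -0.50 with windows 5 and 20. Golga1 (-0.13) and Golga5 (-0.22) were not called, Golga5 being positive on array 2 and negative on the others. Without array 2 Golga5 was called, at -0.39, adjusted p = 0.0046.

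**Figure D2:**
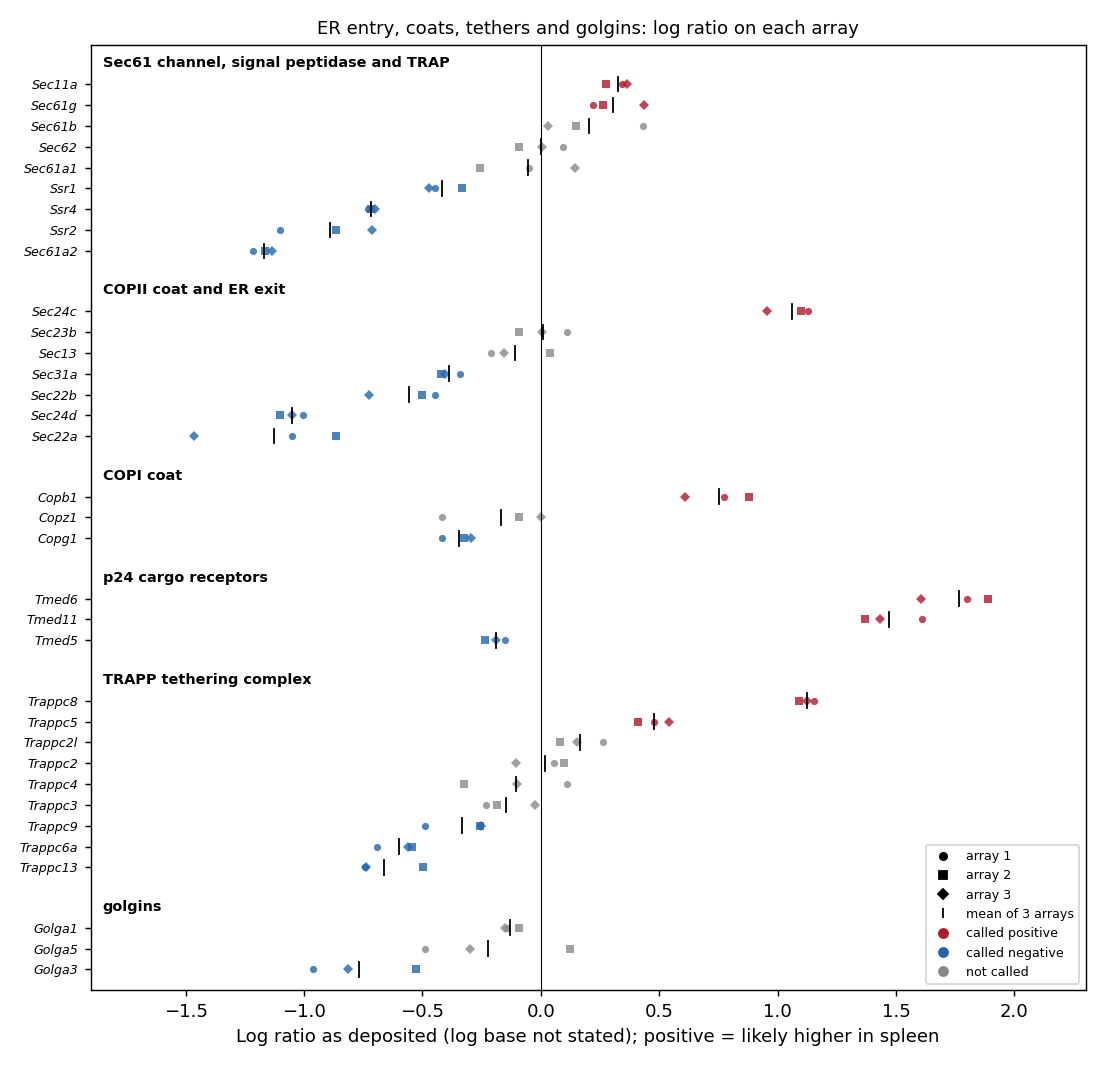
Log ratio on each of the 3 arrays (horizontal axis, log base not stated, positive likely higher in spleen). Shown are the measured genes of the Sec61, signal peptidase and TRAP group, COPII and ER exit, COPI, p24 cargo receptors, TRAPP and golgins. Symbols are single arrays, ticks the mean of 3 arrays, and colour the limma call. Tmed6 and Tmed11 stand at the right and Sec61a2, Sec22a and Sec24d at the left.

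Among the SNAREs, 4 of 9 syntaxins were positive (44.4%, beside 33.2% of all genes) and 0 negative (beside 37.1%), by limma. The share called in either direction was 44.4%, beside 70.3% of all genes. At an unadjusted p under 0.05 the counts were 5 and 0, beside 2091 and 2355 of all 6077 genes. Stx11, a syntaxin of leukocytes needed for the release of cytotoxic granules, gave 1.07, 1.31 and 1.08 (1.16 ± 0.14, adjusted p = 1.03e-05). Stx7, a SNARE of late endosome and lysosome fusion, was the most repeatable of the syntaxins called, at 0.83, 0.86 and 0.87 (0.85 ± 0.017, adjusted p = 1.78e-05). Both lay well above 0 on every array. Stx16, of endosome to trans-Golgi traffic, followed at 0.68 ± 0.067 with both probes called. Stx8, a partner of Stx7 in the same fusion complex, was called at 0.31 but not with 0 kept as a value (0.093, adjusted p = 0.266), not with probes measured on at least 2 arrays (0.15, adjusted p = 0.148), not with window 20 (0.090, adjusted p = 0.188), and it turned sign with window 5 (-0.024, adjusted p = 0.564). Stx5a, Stx6, Stx17, Stx18 and Stx19 lay between -0.07 and 0.19 and were not called. Stx5a, the syntaxin of ER to Golgi traffic, passed with arrays centred on their medians (0.21, adjusted p = 0.0318).

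The VAMPs held the highest member and no common sign. Vamp5, first known from muscle, gave 1.91, 1.84 and 1.84 on 1 probe (1.86 ± 0.042, adjusted p = 4.98e-07), 3.64-fold in base 2 and 6.45-fold in natural logs, and ranked 166 of 6077 genes. Vamp7, a SNARE of lysosome secretion and late endosome fusion, was negative at -0.55, -0.59 and -0.49 (-0.54 ± 0.052; -0.87 with window 5). Vamp4, of the trans-Golgi, gave -0.32, -0.30 and -0.31 (-0.31 ± 0.012; -0.16 and -0.15 with windows 5 and 20). Vamp5 and Vamp7 differed by 2.47, 2.42 and 2.33 on the 3 arrays, not tested. Vamp8, which works in endosome fusion and in secretion by granulocytes and pancreatic acinar cells, had 0.26, 0.22 and 0.33 over 5 probes (0.27 ± 0.056). That mean rests on 1 probe at 1.05, since the other four lay between -0.02 and 0.16 and were not called. With the median of the probes Vamp8 was not called (0.13, adjusted p = 0.184), nor with the probe of the smallest SD (0.16, adjusted p = 0.0687), nor without array 3 (0.24, adjusted p = 0.0604).

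Adaptor complexes pick cargo for coated vesicles, and they were the least covered group. Of 14 genes held by the name rule 5 were measured, 3 of them positive. The AP-2 genes Ap2a1 (-0.085, not called) and Ap2a2 (0.21, called, with limits given below) lie outside the rule. The 3 measured AP-4 genes had unlike ratios. Ap4s1 (sigma) gave 1.28, 1.48 and 1.19 (1.32 ± 0.14, adjusted p = 5.96e-06). Ap4b1 (beta) was at 0.38 ± 0.095; it was not called with window 5 (0.29, adjusted p = 0.0741) and had 0.59 with window 20. Ap4m1 (mu) gave 0.16, -1.10 and 0.21, with array 2 far from the others, and was not called at -0.24 ± 0.74. Without array 3 it was called, at -0.47 (adjusted p = 0.000145), from 2 arrays of opposite sign. That p-value rests on the variance of all genes and does not reflect the gap between these 2 arrays. Ap1m2, the mu subunit of the AP-1 form of polarised epithelia, was positive at 0.61, 0.91 and 0.62 (0.71 ± 0.17, adjusted p = 0.00017) and at 1.15 with window 5. Ap3s2, of the AP-3 complex of lysosome-related organelles, had -0.83, -0.079 and -0.015 and was not called. As with Ap4m1, 1 array stood apart, here array 1. Leaving out array 3 gave a call (-0.46, adjusted p = 0.00025), with the same limit on its p-value. Ap1b1 had values on arrays 1 and 2 of 0.87 and 0.95 and was not tested.

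Sorting nexins bind endosomal membranes through a phosphoinositide-binding domain. Of 8 measured genes of 13, 3 were positive, 3 negative and 2 not called. Snx5 and Snx6, which work as partners in the coat that retrieves cargo from endosomes to the trans-Golgi, had opposite signs. Snx5 gave 0.35, 0.52 and 0.43 with both probes called (0.43 ± 0.088, adjusted p = 0.000895) and Snx6 gave -0.48, -0.45 and -0.60 (-0.51 ± 0.080, adjusted p = 0.000347). The gap between them was 0.83, 0.98 and 1.03 on the 3 arrays, not tested, and Snx6 had -0.33 with window 20 and was not called with window 5 (-0.23, adjusted p = 0.0775). Snx15 was positive at 0.72, 0.68 and 0.79 (0.73 ± 0.053), and so was Snx10, a nexin tied to endosome acidification and osteoclast function, at 0.51, 0.44 and 0.53 (0.49 ± 0.047; 0.23 with window 20). The lowest was Snx4, of recycling from endosomes, at -0.75, -0.68 and -1.01 (-0.81 ± 0.17, adjusted p = 9.56e-05), followed by Snx21 at -0.61, -0.76 and -0.77 (-0.71 ± 0.087). Snx3 and Snx27, which hand cargo to retromer, were not called at 0.005 and 0.047. With window 5 Snx27 was negative and called (-0.13, adjusted p = 0.0389). Snx17, measured on arrays 1 and 3 at -0.60 and -0.40, was not tested.

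ESCRT proteins gather ubiquitinated cargo and cut membrane necks. Of 8 measured genes 4 were positive, 2 negative and 2 not called. In ESCRT-I, the 2 measured VPS37 genes were positive: Vps37a gave 0.71, 0.55 and 0.68 (0.65 ± 0.083) and Vps37b 0.49, 0.59 and 0.62 (0.56 ± 0.065). Vps28 of the same complex was negative at -0.47, -0.28 and -0.20 (-0.32 ± 0.14), though not called without array 1 (-0.24, adjusted p = 0.0573). Tsg101, the ubiquitin-binding subunit, which the name rule does not hold, was negative at -0.35. Mvb12b, another ESCRT-I gene outside the rule, was negative at -0.89. Vps37a had 0.38 with 0 kept as a value and 0.31 with window 5, and Vps37b had 0.20 with window 5 and 0.29 with window 20. In ESCRT-III, the filament that does the cutting, Chmp1b gave 0.81, 0.65 and 0.75 (0.74 ± 0.080, adjusted p = 5.25e-05). Chmp3 was at 0.36 ± 0.035 over 3 probes, with 0.14 under window 5 and no call for the probe with the smallest SD (0.10, adjusted p = 0.148). Chmp4c was not called (0.050). Chmp2a gave -0.21, -0.10 and -0.20, close to 0. Its call (adjusted p = 0.0473) ended without array 1 (0.197) and without array 3 (0.245), with arrays centred (0.0849), with 0 kept as a value (0.0634) and with probes measured on at least 2 arrays (0.0521), and the sign turned with window 20 (0.065, adjusted p = 0.487). Vps36, of ESCRT-II, was not called as a gene (-0.03), because its 2 probes were called at -0.43 and 0.37.

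Retromer and the other Vps genes had small ratios, from -0.43 to 0.28. Vps26b, a retromer subunit, gave -0.21, -0.39 and -0.26 (-0.28 ± 0.093), with no call when 0 was kept as a value (-0.12, adjusted p = 0.163). Vps29, shared by retromer and retriever, and Vps35l, of retriever, were not called at -0.06 and 0.02. Vps16, a core subunit of the HOPS and CORVET tethers, was called at 0.28 from 0.21, 0.51 and 0.12. That call ended without array 1 (adjusted p = 0.0603) and without array 2 (0.0807), with 0 kept as a value (0.0586) and with window 5 (0.148, adjusted p = 0.205). Vps53 of the GARP and EARP tethers gave 0.39, 0.21 and 0.19 over 6 probes, 4 of them called (0.26 ± 0.11). It was not called without array 1 (adjusted p = 0.091) or with 0 kept as a value (0.0513), and the probe with the smallest SD was at -0.12 (adjusted p = 0.144). Vps50, which sets EARP apart from GARP, was negative at -0.45, -0.46 and -0.38 (-0.43 ± 0.044) and lost its call with window 5 (-0.099, adjusted p = 0.081). Vps51, common to both tethers, Vps13b, a lipid transfer protein of the Golgi, and Vps9d1 were not called, at -0.17, -0.045 and -0.17. Without array 2 Vps51 (-0.21, adjusted p = 0.0404) and Vps9d1 (-0.27, adjusted p = 0.0245) were called. Vps13b was called negative with window 5 (-0.12, adjusted p = 0.0233) and positive with window 20 (0.15, adjusted p = 0.0292).

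Not every gene that the name rule holds acts in traffic. Vps72, despite its name, encodes a chromatin protein that handles the histone variant H2A.Z, and it was negative at -0.41, -0.36 and -0.24 with all 4 probes called (-0.33 ± 0.088; -0.18 with window 5). Sec14l1, a lipid-binding protein, gave -0.44, -0.16 and -0.74 (-0.45 ± 0.29) and was not called with window 5 (-0.17, adjusted p = 0.147) or window 20 (-0.11, adjusted p = 0.117).

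In the V-ATPase, the 3 measured genes of the membrane sector V0 were all positive. Of the 5 measured genes of the catalytic sector V1, 3 were negative, 1 positive and 1 not called. Over all genes 33.2% were positive and 37.1% negative, and both sectors hold few genes. V0 carries protons across the membrane, and V1 burns ATP to turn it. The median over the V0 genes was 0.65, 0.48 and 0.54 on the 3 arrays and that over the V1 genes was -0.51, -0.48 and -0.45. Atp6v0a2, an a subunit found in Golgi and endosomes, gave 0.92, 0.89 and 1.12 (0.97 ± 0.12, adjusted p = 2.07e-05). Atp6v0e gave 0.65, 0.48 and 0.54 with all 4 probes called (0.55 ± 0.087; 0.29 with window 5). Atp6v0b, of the proton-binding ring, was at 0.38 ± 0.10; its value was 0.24 with window 20 and its call ended with window 5 (0.21, adjusted p = 0.0899).

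In V1, the 2 measured genes of the G subunit, part of the stalks, were the lowest. Atp6v1g1, the common form of the G subunit, gave -0.88, -0.92 and -1.02 (-0.94 ± 0.069, adjusted p = 1.43e-05), and Atp6v1g2, the form known from brain, gave -1.12, -0.48 and -1.00 (-0.87 ± 0.34), with array 2 nearer 0 than the others. Atp6v1c1 was negative at -0.49 ± 0.040, and at -0.28 with window 5. Atp6v1e1, another stalk subunit, was positive at 0.36 ± 0.048, and at 0.83 with window 5. Atp6v1f was not called (0.13). Without array 2, on which it was negative, it was called at 0.25 (adjusted p = 0.018). Atp6v1h had no value on any array. Atp6v0a2 exceeded Atp6v1g1 by 1.80, 1.81 and 2.13 on the 3 arrays, and Atp6v0e exceeded Atp6v1c1 by 1.16, 1.00 and 0.99. Each pair sets a V0 gene against a negative V1 gene, and neither difference was tested.

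**Figure D3:**
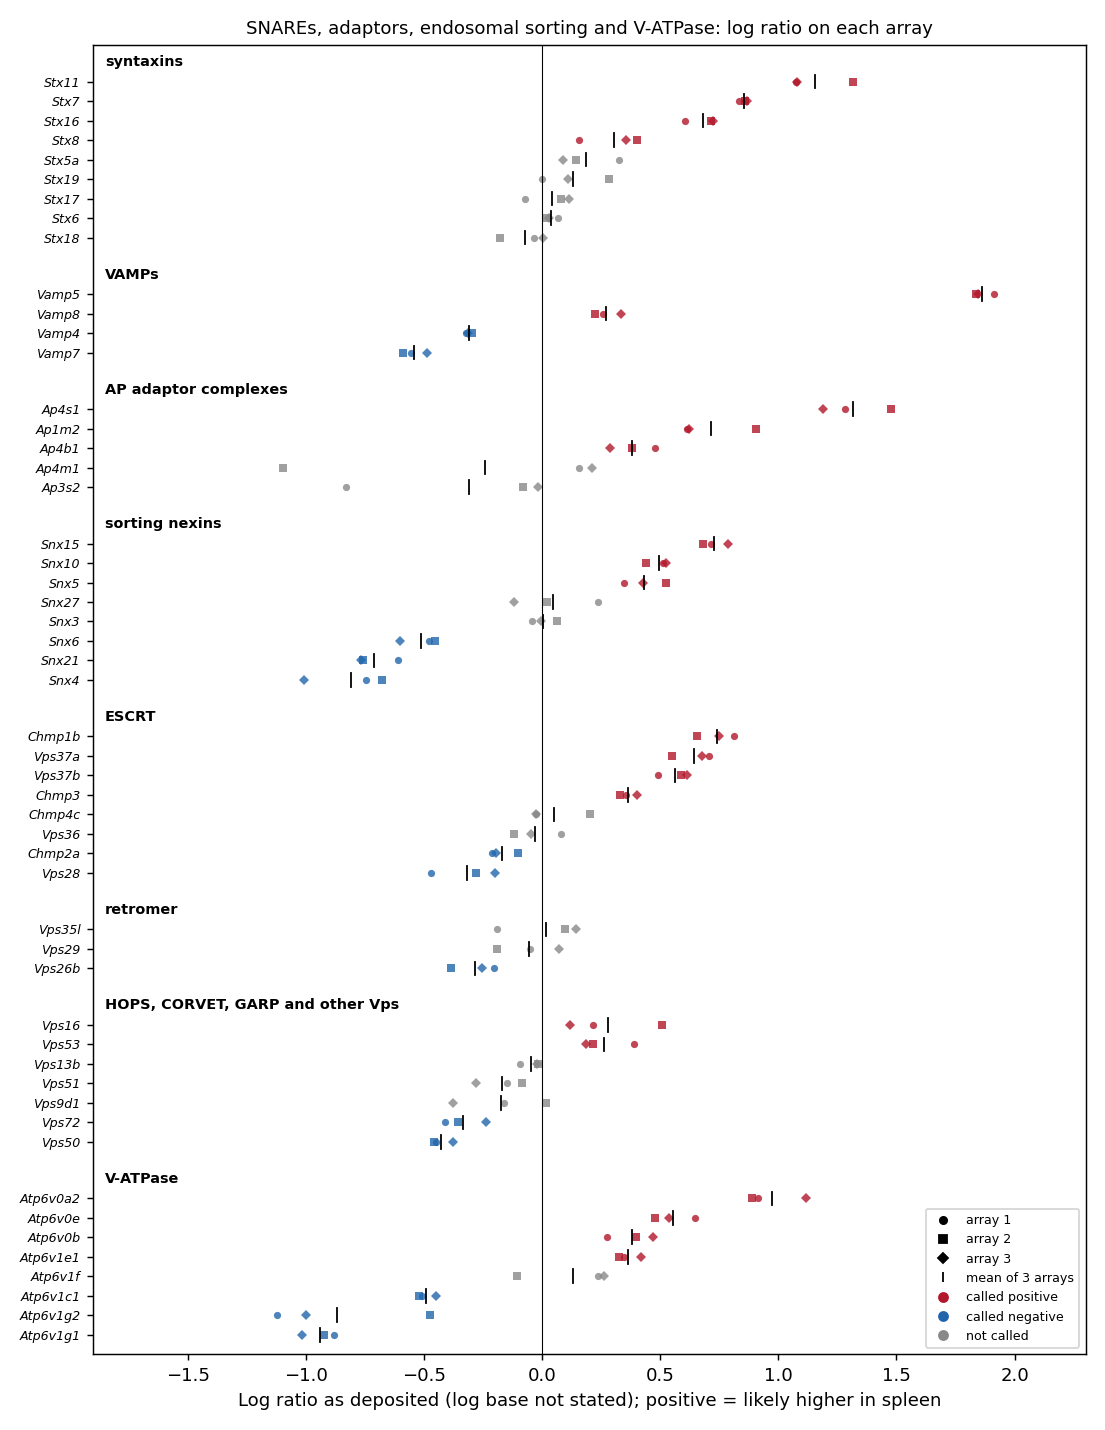
Log ratio on each of the 3 arrays (horizontal axis, log base not stated, positive likely higher in spleen) for syntaxins, VAMPs, adaptor complexes, sorting nexins, ESCRT, retromer, other Vps genes and the V-ATPase. Symbols are single arrays, ticks the mean of 3 arrays, and colour the limma call. Vamp5 stands at 1.86, the 3 V0 genes are positive, and Ap4m1 and Ap3s2 each have 1 array apart from the other two.

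How far a gene's ratio rests on its probe could be seen for the 26 members with more than 1 measured probe, while 61 rest on 1 probe. The median distance between the lowest and highest probe of a gene was 0.330, against 0.346 over all 1491 genes with several probes, and 0.097 was the median SD of a member over arrays. Probes of Copb1 and Vps36 were called in opposite directions (7.69% of the 26, beside 9.32% of all such genes). Besides Copb1, the distance exceeded 1 for Tmed6, whose probes share a sign, and for Vamp8. Probe sequences were not analysed here, so which transcripts each probe reads is unknown.

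**Figure D4:**
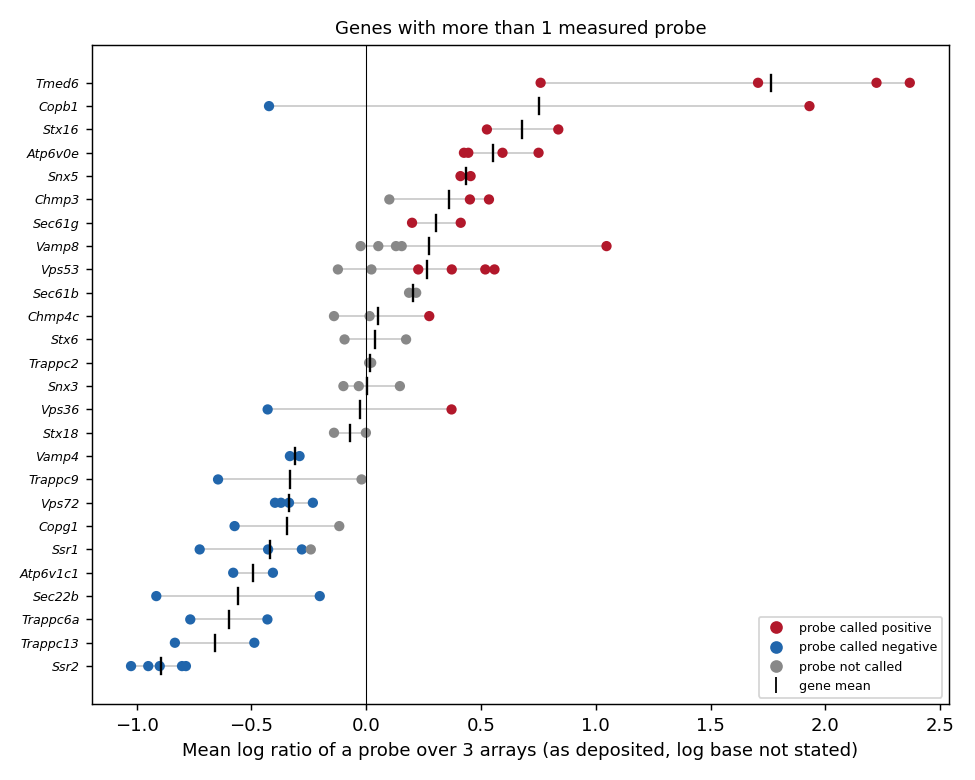
Mean log ratio over 3 arrays of each probe (points, horizontal axis, log base not stated, coloured by limma call) for the 26 genes with more than 1 measured probe, ordered by gene mean (ticks). The 2 probes of Copb1 lie at -0.42 and 1.93, and the 5 probes of Ssr2 lie together between -1.02 and -0.79.

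Other genes of the same pathway, listed apart from the name rule, were mostly on the likely reference side at the ER exit and Golgi steps. In the list of ER exit, cargo receptors and Golgi structure 21 of 46 genes were measured, and 1 was positive, 12 negative and 8 not called, with a median of -0.380 beside -0.033 over all genes. The share called negative was 57.1%, beside the background of 37.1%. The lowest were Ergic1, a membrane protein cycling between ER and Golgi, at -1.56, -1.28 and -1.28 (-1.37 ± 0.16), the lectin receptor Lman1 at -1.09, -1.15 and -1.19 (-1.14 ± 0.048) and Yif1a at -0.94 ± 0.21. The only positive call was Rint1, of an ER tether, at 0.49 ± 0.072. The calls of Bnip1 and Golph3, both negative, ended with window 20 (-0.099, adjusted p = 0.378) and window 5 (-0.11, adjusted p = 0.0637). Genes of SRP, signal peptidase and oligosaccharyltransferase gave 2 positive, 5 negative and 6 uncalled of 13 measured, with a median of -0.110. Spcs3 was lowest at -0.90 ± 0.16, then Srpr, the SRP receptor, at -0.57 ± 0.14, and Ostc at -0.36 ± 0.17. Spcs2, at 0.28, lost its call without array 1 (adjusted p = 0.0686), and Srp19, at 0.32, lost its call with window 20 (0.087, adjusted p = 0.185) and was negative with window 5 (-0.14, adjusted p = 0.023). Srp14, also called, at -0.28, lost its call without array 1 and without array 2 (adjusted p = 0.0576 and 0.0911), with 0 kept as a value (0.0667) and with windows 5 and 20 (0.382 and 0.0549).

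Genes of the later steps went both ways. Among other SNAREs and fusion factors 6 of 12 were positive, 4 negative and 2 not called (median 0.142). The plasma membrane SNARE Snap23 gave 1.45, 1.17 and 1.23 (1.28 ± 0.15), the fusion factor Napa 0.57 ± 0.089 and Snap29 0.49 ± 0.075, while Snap47 gave -1.33, -1.00 and -1.25 (-1.19 ± 0.17), with Napg at -0.45 and Ykt6 at -0.37. Napg was not called with window 5 (-0.015, adjusted p = 0.604). Use1 was not called with window 5 or 20 (adjusted p = 0.992 and 0.402), Gosr2 not without array 1 or 3 (0.0503 and 0.055) and Vti1b not without array 2 (0.0678). Of 19 measured genes of clathrin, endosome and lysosome 7 were positive, 6 negative and 6 not called (median 0.020). The sorting receptor Sort1 was highest at 2.22, 2.02 and 2.05 (2.09 ± 0.11), before Ehd4 (0.87) and Eps15 (0.75), which act in endosomal recycling and endocytosis. The tetraspanin Cd63, of late endosomes, was lowest at -1.98, -1.89 and -1.94 (-1.94 ± 0.047), before the endocytic adaptor Dab2 at -1.73, -1.71 and -1.74 (-1.73 ± 0.015) and the ESCRT-I gene Mvb12b (-0.89). Ap2a2 was not called without array 1 or 3 (adjusted p = 0.0563 and 0.202), and Rabep1 and Vta1 not with window 5 (0.129 and 0.203). Xbp1, the transcription factor of plasma cells and the secretory program, had 0.49, 0.31 and 0.53 (0.44 ± 0.12) and was not called with window 5 (0.15, adjusted p = 0.122), while the IgA heavy chain gene Igha, which marks secreting plasma cells, had 4.78, 4.74 and 4.72.

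**Figure D5:**
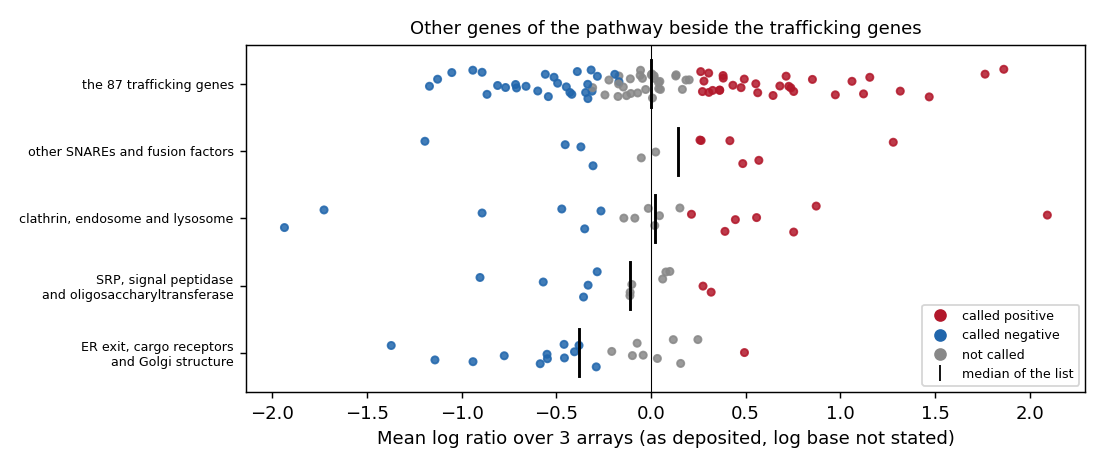
Mean log ratio over 3 arrays (horizontal axis, log base not stated) of each gene in the 4 lists of other pathway genes and of the 87 trafficking genes, with points spread vertically to separate them, coloured by limma call, and ticks at the median of each list. The list of ER exit, cargo receptors and Golgi structure has its median at -0.380 and 1 positive call.

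The calls that held under every setting were 8 positive and 4 negative members: Vamp5, Tmed6, Tmed11, Ap4s1, Stx11, Trappc8, Atp6v0a2, Stx7, Ssr2, Atp6v1g1, Sec24d and Sec61a2 kept call and sign under each of the 16 other settings, fold thresholds included. How many of all called genes held in this way was not counted. Among the members just named, only Tmed6 (4 probes) and Ssr2 (5 probes) had several measured probes. Taking the median of the measured probes or the one with the smallest SD could not change the ratios of the others. Settings that admit further probes could: Tmed11 had 1.54 with 0 kept as a value and 1.78 with probes measured on at least 2 arrays. Without moderation of the variance 13 called members did not pass (adjusted p between 0.0503 and 0.186): Sec61g, Sec22a, Sec22b, Trappc9, Golga3, Stx8, Chmp2a, Vps28, Vps26b, Vps16, Vps53, Atp6v1g2 and Sec14l1. At an adjusted p under 0.01 the calls of Tmed5, Chmp2a, Vps16 and Vps53 ended. Removing a running median also added calls with an unchanged sign, 11 with window 5 and 8 with window 20. Among them were Sec61a1 (-0.68, adjusted p = 0.0157), Sec13 (-0.38, adjusted p = 0.00735), Trappc2l (0.70, adjusted p = 0.00381) and Stx19 (0.33, adjusted p = 0.0167) with window 5, and Stx5a (0.37, adjusted p = 0.0195) and Vps29 (-0.28, adjusted p = 0.00297) with window 20.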

How the data were processed

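Each of the 3 arrays gave 1 log ratio for 16273 probes, in 1 table deposited by the authors. The kind of array, how spots were corrected and normalized, and which base and numerator the ratio has are not stated in the sources used here. No intensities were analysed, so signal over background is unknown. The design spoke of log ratios and named no base. Values were tested as deposited, since the base alters folds and not tests against 0. Exact 0, present for 24.2% to 26.8% of probes per array, was read as no measurement, and widely expressed genes (Gapdh and B2m, at 0 on every array) are among them, so 0 is not absence.

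Platform annotation gave 1 symbol to 12336 probes and several to 61, and 3876 are unnamed here. RefSeq (GRCm38.p6, names only) held the gene IDs of 12228, with 0 symbols changed. Probes measured on all 3 arrays were averaged into 6077 genes. A one-group fit in limma 3.58.1 (R 4.3.3) compared each gene's mean with 0 (Benjamini-Hochberg, adjusted p under 0.05), checked on simulated data. The members, gene lists, role groups and settings were chosen with earlier results of these data known. Any member could be named. Values on each array are given for the 8 highest and 8 lowest called members, up to 2 positive and 2 negative per role group, and others described for context. From each list of other pathway genes up to 3 per direction were named, and from marker lists the extremes, with further genes named after their values were seen. Of the marker lists, plasma cell genes gave 3 positive of 3 measured. Figures used matplotlib 3.10.9 in Python 3.11.15.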

Additional observations from a re-analysis of the deposited data

How the results depend on the processing

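Counts of called genes fell mainly under fold thresholds and without moderation of the variance. Against a 1.5-fold change in base 2, 1208 of the 6077 genes were called (626 positive, 582 negative), 9 and 5 members, and of the lists of ER exit and Golgi, SRP and oligosaccharyltransferase, clathrin and lysosome, and other SNAREs 3, 1, 4 and 2 genes. In natural logs these were 1771 (876 and 895), 15 and 12, and 4, 1, 6 and 2. Without moderation they were 2770 genes, 1395 of them negative, and 8, 3 and 8 genes of the first 3 lists. Leaving out 1 array gave 28 to 31 positive and 25 to 30 negative members and a median of members between -0.044 and 0.010. That median was 0.030 with arrays centred on their medians, 0.065 with window 20 and -0.057 for the probe with the smallest SD, so its sign is not settled. Apart from the genes whose turned sign is given above (Copb1 at -0.42 for the probe with the smallest SD among them), Cog2 and Epn2 turned with window 20 (0.18 and -0.17), and M6pr, Npc2, Tram1 and Vti1a with window 5 (0.18, -0.32, -0.18 and 0.13). None of these 6 was called as reported. Vps53 (-0.12), Chmp2a (0.065), Vps13b (0.15), Trappc9 (0.11), Stx8 (-0.024), Snx27 (-0.13) and Srp19 (-0.14) turned under the settings named with them. The causes were not tested. In all, 38 of 58 called members kept their call outside the fold thresholds and the unmoderated test. The matching count over all called genes was not made. Quantile normalization and robust moderation changed the call of 0 members. No paired analysis was possible because the arrays form 1 group. Array number limits the precision.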
